A study of Mus musculus with 31 samples.

Results

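The subunits of oxidative phosphorylation were examined in the lactating mouse mammary gland. Members were the protein-coding genes whose GRCm39 symbol starts with Nduf, Sdh, Uqcr, Atp5 or mt-, or with Cox followed by 4 to 8, without the muscle gene Cox6a2. Of 55379 genes in the count tables, 21614 of them protein-coding, 101 matched by name and 96 held at least 100 counts summed over the 31 libraries. Complex I contributed 45 members, complex II 8, complex III 8, complex IV 17 and complex V 18. They included 83 subunits, 8 complex I assembly factors (Ndufaf1 to Ndufaf8), 4 complex II assembly factors (Sdhaf1 to Sdhaf4) and Atp5if1, the inhibitor of the ATP synthase. The 5 genes under the minimum were Ndufb11b, Cox7b2 and a second gene ID named Atp5po with 0 counts each, Cox8c with 3 and Cox6b2 with 85. The latter 2 are isoforms known from testis. All 96 members are coded in the nucleus. The tables used here held 0 genes of the mitochondrial chromosome, so the 13 mitochondrial-coded mRNAs, mt-Co1 among them, were not analysed here. Cyc1, a subunit of complex III, lies outside the name rule and was followed in a separate list. Cox5b-ps is a near-identical copy of Cox5b, and the split of reads between these genes is uncertain.

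Oxidative phosphorylation takes place in the inner mitochondrial membrane. Complex I (NADH dehydrogenase) and complex II (succinate dehydrogenase) pass electrons to ubiquinone, complex III passes them on to cytochrome c, and complex IV (cytochrome c oxidase) passes them to oxygen. Complexes I, III and IV pump protons, and complex V (ATP synthase) makes ATP from the proton gradient. Complex II is the exception in that all of its subunits are nuclear-coded, and it also serves the citric acid cycle. In the lactating mammary gland, secretory epithelial cells rich in mitochondria use this ATP for the synthesis and transport of milk components.

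The study asked how fluoxetine, a selective serotonin reuptake inhibitor, and dietary folic acid (FA) affect the mammary transcriptome at peak lactation. C57BL/6J dams ate either the breeder diet, at 4 mg/kg FA, or the FA diet, at 24 mg/kg, from before mating, and were injected intraperitoneally with saline or with fluoxetine, 20 mg/kg per day, from embryonic day 13 until tissue was taken on lactation day 10. On the breeder diet 8 dams had saline and 7 had fluoxetine, and on the FA diet there were 8 dams with each injection. These 4 groups are called breeder diet + saline, breeder diet + fluoxetine, FA diet + saline, FA diet + fluoxetine, and values listed for 4 groups follow this order. Each dam gave 1 poly-A library of whole mammary tissue, all groups were injected, and no group carried a modified allele. Females were mated from 6 weeks of age on, and the age of each dam at tissue collection was not given in the sources used here. In bulk tissue, fewer cells of a type and less RNA per cell cannot be told apart.

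Libraries held 15412542 to 36000439 counts, and 8 milk transcripts (caseins, Wap, Lalba and Glycam1) took 49.8% to 73.3% of them in all dams but 1. The exception was dam 3 of FA diet + fluoxetine, in which milk transcripts made up 17.7% of counts, the scaling factor from the trimmed mean of M-values (TMM) was 3.04, and fibroblast markers summed to 937 CPM, which are counts scaled to a common library size, against at most 296 in every other dam. All 96 members summed to 2316 CPM in this dam and to 3864 to 7067 CPM in the other 30. Counts and medians of the contrasts are therefore given with and without dam 3, and the part that its tissue makeup had in the result was not tested. No 2 libraries of a group agreed within sampling noise. The CPM use the TMM-scaled library size.

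Levels of the subunits were first compared per length, as mean CPM over the 31 dams divided by the length of the canonical transcript in kilobases. The 83 subunits ranged from 0.769 CPM per kb for Cox4i2 to 492 for Cox6a1, with a median of 37.7. The median level was 83.8 CPM per kb in complex IV, 71.5 in complex V, 55.5 in complex III, 32.8 in complex I and 15.9 in complex II. The most abundant complex I mRNAs were Ndufa1 (218 CPM per kb), Ndufc2 (116) and Ndufb8 (111), all of them accessory subunits of the membrane arm. In complex II, Sdhd, a membrane anchor, stood at 29.3 CPM per kb, Sdha, the flavoprotein that oxidizes succinate, at 19.4, and Sdhb, the iron-sulfur subunit, at 12.4. The small complex III subunits Uqcr10 (117 CPM per kb), Uqcrq (93.0) and Uqcrh (76.3) stood above the core protein Uqcrc2 (22.3). Complex IV was led by Cox6a1 (492 CPM per kb), Cox4i1 (310) and Cox8a (294), and complex V by the epsilon subunit Atp5f1e (222), the membrane subunit Atp5mg (154) and Atp5mc3 (137), one of the genes for the c ring. The assembly factors, which help to build complexes but are not part of them, were low, with Ndufaf8 at 8.79 CPM per kb. Per-length levels depend on the transcript chosen: Atp5pf was counted against a transcript of 3619 bases and read 19.0 CPM per kb, although its coding sequence has only 324 bases.

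**Figure D1:**
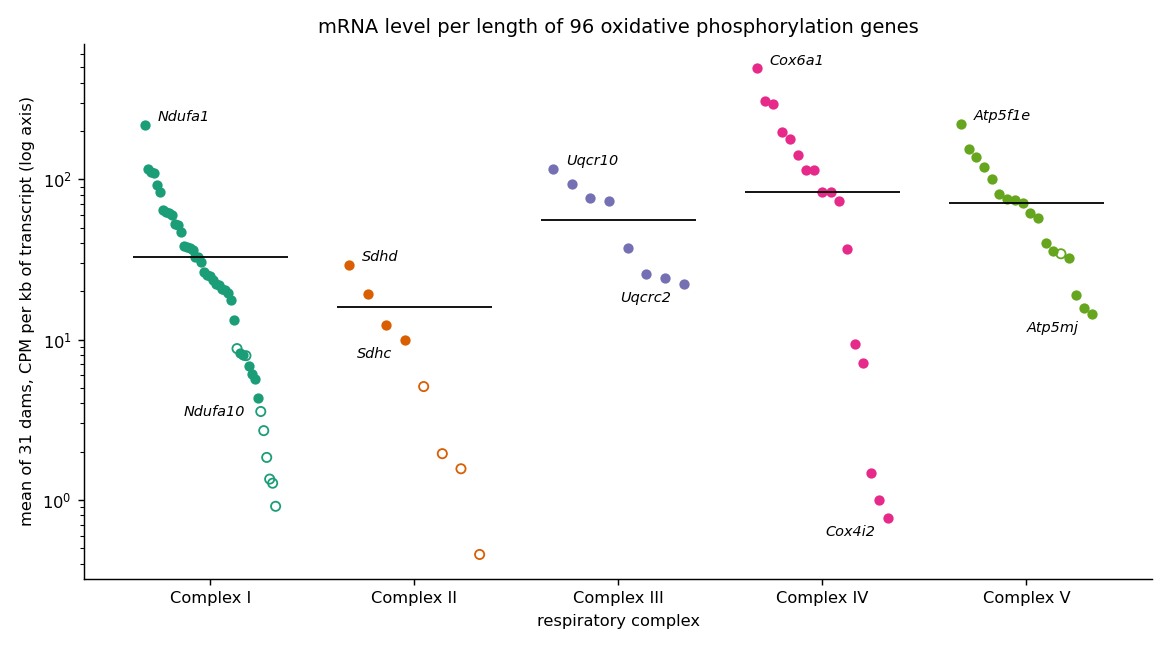
Mean level of each of the 96 members over 31 dams, in CPM per kb of canonical transcript on a log axis, by complex, ordered from high to low, with filled points for subunits, open points for assembly factors and Atp5if1, and a line at the median of the subunits. Complex IV spans the widest range, from Cox4i2 at 0.769 to Cox6a1 at 492 CPM per kb, and the complex II subunits all lie at or below 29.3.

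Several complex IV subunits exist as a common isoform and one of restricted expression. Cox4i1, the common subunit 4, stood at 310 CPM per kb and Cox4i2, known from lung and from low oxygen, at 0.769, a ratio of 402. Cox8a exceeded Cox8b, known from muscle and brown fat, 199-fold (294 against 1.48 CPM per kb). Ndufa4, now assigned to complex IV, exceeded its relative Ndufa4l2, known from low oxygen, 114-fold (114 against 0.996). The gap was smaller for Cox7a2 and the muscle and heart isoform Cox7a1, at 83.8 and 7.18 CPM per kb, a ratio of 11.7. The common isoform was the more abundant of each pair, by means over all dams. Cox6b1, the common partner of the testis isoform Cox6b2, stood at 142 CPM per kb, and Cox7a2l, a relative of Cox7a2 that takes part in supercomplexes, at 36.9.

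The promoters of 2 of the pairs that differed in level by over 100-fold are shown. That of Sdha is given as well, the only one of the 5 shown that holds a site for nuclear respiratory factor 1 (NRF1). Each sequence gives the 250 bases before the start of the canonical transcript (GENCODE vM39, reference genome GRCm39), 5′ to 3′ on the strand of the gene, at chr8:121394677-121394926 (plus strand) for Cox4i1, chr2:152595813-152596062 (plus) for Cox4i2, chr19:7194965-7195214 (minus) for Cox8a, chr7:140480360-140480609 (minus) for Cox8b and chr13:74498437-74498686 (minus) for Sdha. Capitals mark matches on either strand to CCGGAA, the core bound by ETS factors such as GABP, or to GCGCA and GCGC with any 1 base between them, the site bound by NRF1.
Cox4i1: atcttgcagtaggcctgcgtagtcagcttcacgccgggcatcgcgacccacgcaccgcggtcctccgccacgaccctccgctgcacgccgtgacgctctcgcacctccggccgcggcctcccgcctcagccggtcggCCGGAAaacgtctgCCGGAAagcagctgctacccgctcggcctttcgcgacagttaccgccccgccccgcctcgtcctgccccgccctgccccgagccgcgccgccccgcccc
Cox4i2: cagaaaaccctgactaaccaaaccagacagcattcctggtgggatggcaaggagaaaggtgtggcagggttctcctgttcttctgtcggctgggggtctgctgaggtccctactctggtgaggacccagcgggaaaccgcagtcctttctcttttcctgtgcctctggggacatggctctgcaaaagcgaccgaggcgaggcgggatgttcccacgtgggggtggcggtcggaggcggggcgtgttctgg
Cox8a: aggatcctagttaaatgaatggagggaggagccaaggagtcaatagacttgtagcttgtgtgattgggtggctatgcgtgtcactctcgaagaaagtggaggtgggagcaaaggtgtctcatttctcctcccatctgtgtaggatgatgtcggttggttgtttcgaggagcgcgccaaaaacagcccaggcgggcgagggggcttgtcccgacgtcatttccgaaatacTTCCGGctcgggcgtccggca
Cox8b: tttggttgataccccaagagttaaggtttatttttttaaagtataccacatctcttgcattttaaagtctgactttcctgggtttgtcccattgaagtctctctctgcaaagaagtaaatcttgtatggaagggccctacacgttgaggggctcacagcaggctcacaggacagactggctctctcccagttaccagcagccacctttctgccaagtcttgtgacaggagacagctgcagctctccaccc
Sdha: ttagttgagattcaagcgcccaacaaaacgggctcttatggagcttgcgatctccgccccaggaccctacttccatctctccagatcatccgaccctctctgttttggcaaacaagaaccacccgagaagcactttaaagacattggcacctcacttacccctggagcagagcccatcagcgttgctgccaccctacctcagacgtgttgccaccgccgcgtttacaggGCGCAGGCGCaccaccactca
Cox4i1 held 2 ETS matches and Cox8a held 1, read on the opposite strand, while neither motif was found in these windows of Cox4i2 and Cox8b. In the pair not shown, Ndufa4 and Ndufa4l2, 114-fold apart, neither gene's window held either motif. Over the 96 members, the ETS core was present in 19 (19.8%), against 12.4% of all 21614 protein-coding genes, and the NRF1 site in 8 (8.33%), against 3.70%. In complex II the ETS core was found in 4 of 8 members and the NRF1 site in 2 of 8. These are letter matches, and their absence says only that the letters are not in the window. The motifs share no bases with each other, and the shares were not tested.

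The 3 highest Cox7a1 levels were in the 3 dams with most muscle RNA, but lower levels did not follow it dam by dam. In CPM, Cox7a1 ran from 1.65 to 5.26 (median 2.32) in breeder diet + saline, from 1.42 to 11.9 (median 2.54) in breeder diet + fluoxetine, from 0.977 to 9.18 (median 1.82) in FA diet + saline and from 0.874 to 6.47 (median 2.81) in FA diet + fluoxetine. The 4 groups overlapped, and 1 dam stood above the rest in each of the last 3. The 3 dams with the highest Cox7a1 (dam 5 of breeder diet + fluoxetine at 11.9 CPM, dam 4 of FA diet + saline at 9.18, dam 10 of FA diet + fluoxetine at 6.47) were also those with the highest sums of 7 muscle markers such as Acta1 and Ckm, at 6270, 3879 and 3573 CPM. The median of that sum over all dams was 247 CPM and the lowest 0.664 CPM. Dam 12 of FA diet + saline, with a sum of 1857 CPM, had 2.75 CPM of Cox7a1. Dam 6 of FA diet + fluoxetine, with a sum of 3.44 CPM, had 3.33 CPM. Cox8b reached 17.3 CPM in the same dam 5 and 9.57 CPM in the same dam 10, with 10.9 CPM in dam 9 of breeder diet + fluoxetine between them. Ucp1, the defining gene of brown fat, had a median of 0 CPM over all dams and its highest value, 6.72 CPM, in that dam 9. The part of muscle or brown fat in these levels was not tested.

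**Figure D2:**
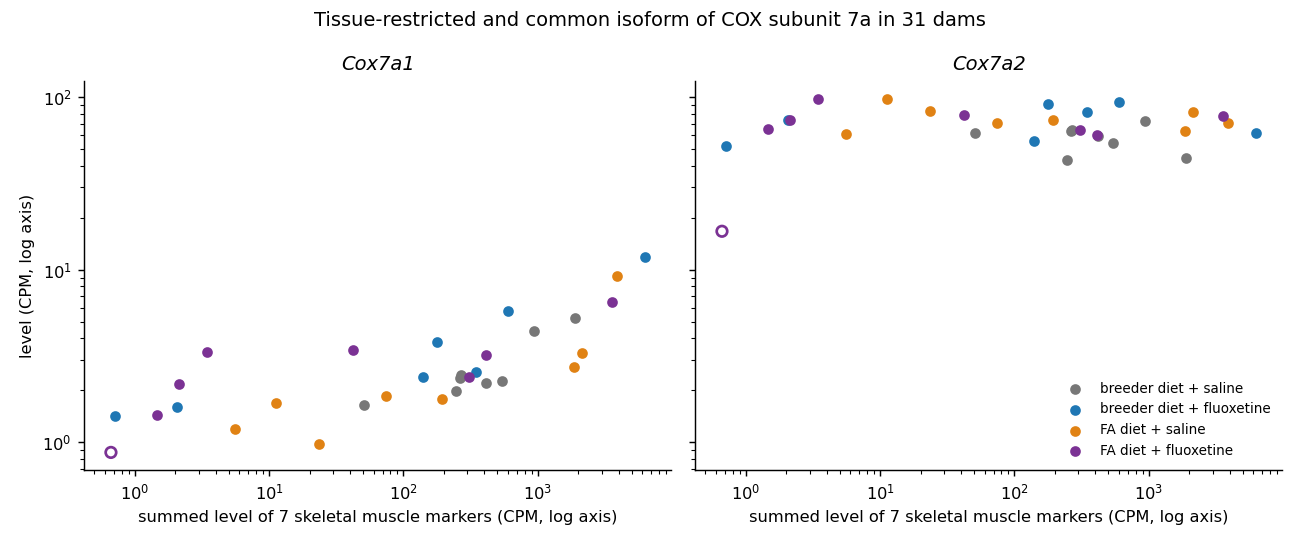
CPM of Cox7a1 (left) and of its common partner Cox7a2 (right) in each dam against the summed CPM of 7 skeletal muscle markers, both on log axes, with 1 point per dam coloured by group and dam 3 of FA diet + fluoxetine as an open circle. The 3 dams with muscle sums of 3573 to 6270 CPM carry the 3 highest Cox7a1 values, 6.47 to 11.9 CPM, while dam 3 has the lowest Cox7a2, 16.7 CPM.

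Summed by complex, the members were lowest on average in breeder diet + saline, and the groups overlapped. The 96 members together ran from 3864 to 5788 CPM (median 4880.4) in breeder diet + saline, from 4825 to 6484 CPM (median 5638) in breeder diet + fluoxetine, from 4754 to 6583 CPM (median 5851) in FA diet + saline and from 2316 to 7067 CPM (median 5790.3) in FA diet + fluoxetine. Without dam 3 the lowest value of the last group was 4926 CPM. The mean of breeder diet + saline was 4815 ± 582 CPM (SD, n = 8), against 5538 ± 583 (n = 7), 5773 ± 589 (n = 8) and 5416 ± 1407 (n = 8, or 5858 ± 693 with n = 7 without dam 3). Sums are given as descriptions, with no test, and they depend on the TMM scaling. Shares of raw counts by group are given under other observations.

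On the breeder diet complex I summed to 1443 ± 214 CPM with saline and 1702 ± 234 with fluoxetine, and on the FA diet to 1712 ± 153 with saline and 1649 ± 463 with fluoxetine (1785 ± 276 without dam 3). Complex III followed the same order of size, with 520 ± 77.2, 598 ± 80.4, 615 ± 68.3 and 596 ± 184 CPM (651 ± 108 without dam 3). For complex IV the sums were 1260 ± 167, 1440 ± 156, 1496 ± 198 and 1396 ± 393 CPM (1523 ± 168 without dam 3). Complex V, the maker of ATP, summed to 1409 ± 141, 1609 ± 169, 1739 ± 168 and 1585 ± 368 CPM (1701 ± 182 without dam 3). Complex II was the smallest at 184 ± 18.9, 189 ± 13.8, 211 ± 29.8 and 189 ± 29.9 CPM (198 ± 19.2 without dam 3). It also ordered the dams differently: dam 5 of FA diet + fluoxetine ranked 3rd of 31 by complex I and 22nd by complex II, and dam 4 of breeder diet + saline ranked 9th and 28th.

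**Figure D3:**
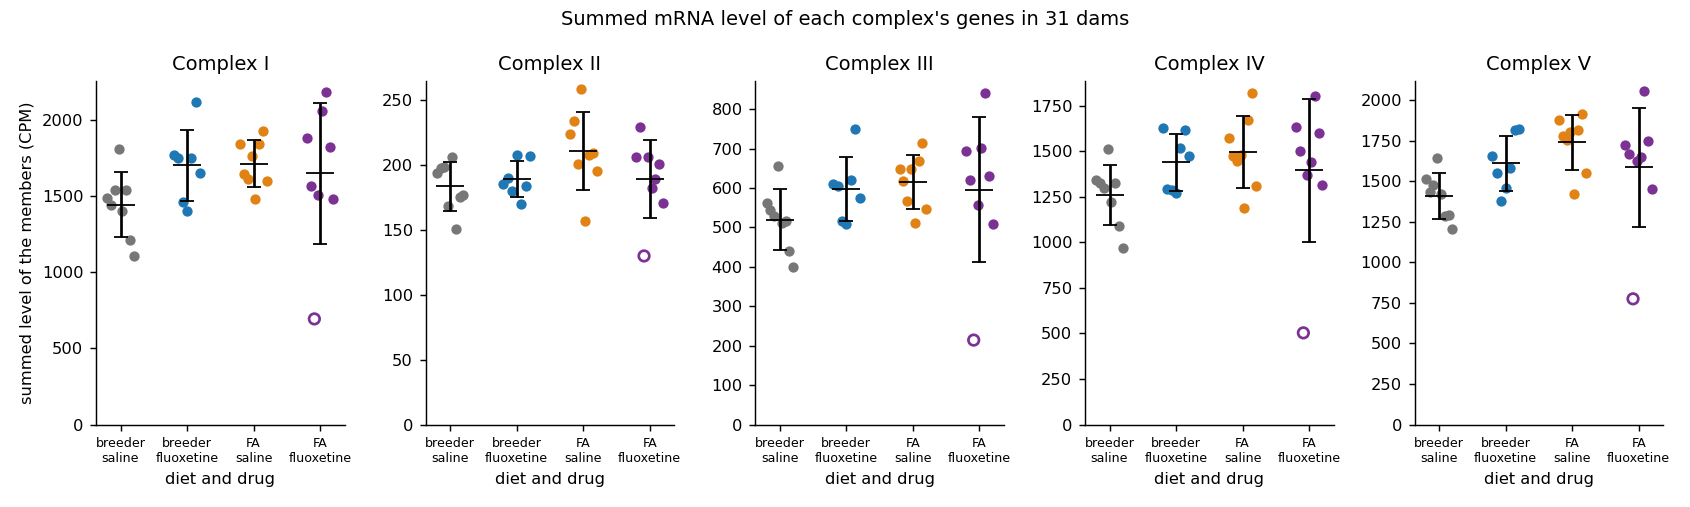
Summed CPM of the members of each complex in every dam, by diet and drug, with 1 point per dam, dam 3 of FA diet + fluoxetine as an open circle, and bars for the mean and SD of all dams of the group. In each complex the 4 groups overlap, and dam 3 lies lowest.

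Fluoxetine was compared with saline as the mean of its effects on both diets. No member passed a false discovery rate (FDR) of 10% by edgeR's quasi-likelihood test, where 3 of 14362 genes (0.0209%) did. On the log2 scale 63 of 96 members were higher with fluoxetine, with a median difference of 0.06, beside 0.02 over all genes tested. Of all genes tested 53.5% were higher. An unadjusted p of 0.05 or below was reached by 9 members, 8 higher and 1 lower, beside 9.92% of all genes tested, so the share of members (9.38%) was near the background. Without dam 3 there were 25 members, 24 higher and 1 lower, beside 9.21% of genes, 75 members were higher, beside 48.4% of genes, and the median was 0.11. DESeq2 also called 0 members at an FDR of 10%. By complex, 32 of 45 members were higher in complex I, 1 of 8 in complex II, 4 of 8 in complex III, 14 of 17 in complex IV and 12 of 18 in complex V. The p-values measure the spread between these dams.

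The smallest p for fluoxetine belonged to Ndufa5, an accessory subunit of the peripheral arm of complex I. In CPM, Ndufa5 ran from 15.4 to 32.6 (median 27.2) in breeder diet + saline, from 26.7 to 52.1 (median 35.7) in breeder diet + fluoxetine, from 26.1 to 38.1 (median 30.9) in FA diet + saline and from 19.4 to 58.4 (median 32.4) in FA diet + fluoxetine. The fluoxetine groups reached higher but overlapped the saline groups on both diets. The log2 difference was 0.35 (SE 0.13, unadjusted p = 0.00836, Benjamini-Hochberg adjusted p = 0.391 by edgeR's quasi-likelihood test), and 0.39 without dam 3.

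Ndufaf8, an assembly factor of complex I, had medians of 5.63, 6.82, 6.14 and 8.37 CPM in the order of groups above and a log2 difference of 0.28 (SE 0.11, adjusted p = 0.425 by edgeR's quasi-likelihood test), or 0.31 without dam 3. Atp5me, the e subunit in the membrane part of the ATP synthase, had medians of 23.6, 29.2, 24.8 and 27.9 CPM and a log2 difference of 0.40 (SE 0.17, adjusted p = 0.455 by edgeR's quasi-likelihood test), with 1 dam of breeder diet + fluoxetine at 56.7 CPM, and without dam 3 the difference was 0.44. The groups overlapped for both genes. The other members at an unadjusted p of 0.05 or below were Ndufb7 (0.33), Sdhaf1 (0.33), Cox5b-ps (0.35), Atp5if1 (0.24), Atp5pd (0.22) and, in the other direction, the assembly factor Ndufaf5 (-0.27). Without dam 3 these 6 differences were 0.38, 0.33, 0.40, 0.24, 0.25 and -0.29. Atp5if1 blocks ATP hydrolysis by the synthase when the proton gradient collapses. Its level ran from 14.7 to 32.3 CPM in breeder diet + saline and from 22.2 to 34.8 CPM in FA diet + fluoxetine. These groups differ in both diet and drug. In breeder diet + saline all dams but dam 4 were at 21.4 CPM or below. The marker subunits showed small differences: Cox5a had a log2 difference of 0.02 (SE 0.13) and Ndufa1 of 0.12 (SE 0.20), or 0.08 and 0.19 without dam 3.

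The FA diet was compared with the breeder diet as the mean of its effects under both injections. No member passed an FDR of 10% by edgeR's quasi-likelihood test or DESeq2, and by edgeR no gene of the 14362 did (0.0%). The direction was nearly uniform: 90 of 96 members were higher on the FA diet, with a median log2 difference of 0.12 beside 0.02 over all genes tested, of which 53.9% were higher. Only 2 members, both higher, had an unadjusted p of 0.05 or below, beside 5.08% of all genes tested. Without dam 3 there were 32 such members, all higher, beside 6.99% of genes. In this fit 91 of the 96 were higher, beside 48.8% of genes, and the median was 0.16 with a smallest adjusted p of 0.577 by edgeR's quasi-likelihood test. Of these 32, 15 were in complex I, 1 in complex II, 4 in complex III, 3 in complex IV and 9 in complex V.

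The 3 members of smallest p for FA were Ndufaf6, Atp5f1b and Ndufb6. Atp5f1b, the catalytic beta subunit of the ATP synthase, ran from 173 to 246 CPM (median 214) in breeder diet + saline, from 174 to 277 CPM (median 210.4) in breeder diet + fluoxetine, from 209 to 292 CPM (median 278) in FA diet + saline and from 144 to 292 CPM (median 232) in FA diet + fluoxetine. The FA diet groups overlapped the breeder diet groups under both injections. Its log2 difference was 0.20 (SE 0.09, unadjusted p = 0.0427, adjusted p = 0.933 by edgeR's quasi-likelihood test), and 0.23 without dam 3. Ndufaf6, an assembly factor of complex I at medians of 1.12 to 1.82 CPM, had a log2 difference of 0.45 (SE 0.20, unadjusted p = 0.0317, adjusted p = 0.933 by edgeR's quasi-likelihood test), and 0.47 without dam 3. Ndufb6, an accessory subunit of the membrane arm, had medians of 20.5, 25.2, 29.2 and 26.1 CPM and a log2 difference of 0.22 (SE 0.12), or 0.28 without dam 3. For Cox5a the log2 difference was 0.07 (SE 0.13) and for Ndufa1 0.02 (SE 0.20), or 0.14 and 0.10 without dam 3.

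Whether the drug's effect differed between diets was tested as an interaction, the fluoxetine difference on the FA diet minus that on the breeder diet. The interaction was below 0 for 91 of 96 members, with a median of -0.29 on the log2 scale beside 0.03 over all genes tested. It was above 0 for 54.0% of all genes tested. No member passed an FDR of 10% by edgeR's quasi-likelihood test or DESeq2, and by edgeR no gene of the 14362 did (0.0%). An unadjusted p of 0.05 or below was reached by 5 members, all below 0, beside 3.84% of all genes tested. Without dam 3, 86 members were below 0, while 48.5% of all genes were above 0. The members' median was then -0.19, and again 5 members passed that limit, beside 3.48% of genes. The 5 members were Atp5pf, Ndufa10, Ndufs8, Atp5mc1 and Uqcrc1.

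Atp5pf, known as coupling factor 6 in the stalk of the ATP synthase, had the smallest p. In CPM it ran from 52.4 to 72.2 (median 62.3) in breeder diet + saline, from 61.4 to 79.6 (median 70.3) in breeder diet + fluoxetine, from 68.2 to 91.5 (median 80.7) in FA diet + saline and from 35.5 to 74.3 (median 69.3) in FA diet + fluoxetine. The FA diet + saline group reached highest and breeder diet + saline lay lowest apart from dam 3, with neighbouring groups overlapping. The interaction was -0.50 (SE 0.17, unadjusted p = 0.00624, adjusted p = 0.977 by edgeR's quasi-likelihood test), and -0.42 without dam 3.

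Ndufa10, an accessory subunit of complex I, had medians of 28.7, 35.3, 35.2 and 31.6 CPM and an interaction of -0.37 (SE 0.15), or -0.34 without dam 3. Ndufs8, which carries 2 iron-sulfur clusters next to the quinone site, had medians of 23.1, 26.6, 31.6 and 25.4 CPM and an interaction of -0.52 (SE 0.22), or -0.42 without dam 3. Atp5mc1, a further gene for the c ring, had an interaction of -0.53 (SE 0.24), and the complex III core protein Uqcrc1 one of -0.42 (SE 0.20). Without dam 3 these were -0.41 and -0.33. For both, breeder diet + saline held the lowest median.

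The comparisons within a level of the other factor make up these contrasts. They share groups in pairs, breeder diet + saline being the control in 2 of them, and their values are given side by side. On the breeder diet, 86 of 96 members were higher with fluoxetine, with a median log2 difference of 0.22, and 11 had an unadjusted p of 0.05 or below, all higher, beside 4.39% of all genes tested. On the FA diet, 34 members were higher with fluoxetine, the median was -0.07, and 6 members passed that limit, 1 higher and 5 lower, beside 9.98% of genes. Without dam 3, 50 members were higher on the FA diet, the median was 0.00, and 5 members passed, beside 6.11%. Under saline, 94 members were higher on the FA diet than on the breeder diet, the median was 0.25, and 21 passed, all higher, beside 6.09%. Under fluoxetine, 30 were higher, the median was -0.04, and 0 passed, beside 3.75% of genes. Without dam 3, 79 were higher under fluoxetine, the median was 0.06, and 0 passed, beside 2.51%. In none of these did a member pass an FDR of 10% by edgeR's quasi-likelihood test. Of all genes tested, 50.5% were higher with fluoxetine on the breeder diet and 54.5% on the FA diet (48.6% without dam 3). Under saline 50.4% were higher on the FA diet than on the breeder diet, and under fluoxetine 54.3% (49.4% without dam 3). The members share libraries, so counts of members are descriptions.

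Dam 3 also bears on the comparisons that it is not part of, because the fit shares 1 estimate of spread per gene. Without it, 30 members passed an unadjusted p of 0.05 for fluoxetine on the breeder diet, beside 6.12% of genes, and 45 for FA under saline, beside 8.75%, while the median differences remained 0.21 and 0.25. Under saline the 21 members with all dams were led by Atp5pf (0.39, SE 0.12), Ndufa10 (0.31, SE 0.10), Ndufs8 (0.46, SE 0.15) and Ndufb6 (0.43, SE 0.16). They came from all 5 complexes, with 11 in complex I, 2 in complex II, 1 in complex III, 1 in complex IV and 6 in complex V. Uqcrc1, picked after its values were seen, ran from 49.1 to 63.9 CPM in breeder diet + saline and from 64.7 to 87.3 CPM in FA diet + saline. How many members or other genes are as far apart in these groups was not counted. On the FA diet the members lower with fluoxetine included Atp5pf (-0.30, SE 0.12), Atp5f1c (-0.40, SE 0.16) and Uqcrc1 (-0.32, SE 0.14), and Ndufaf8 was the member higher (0.33, SE 0.16).

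**Figure D4:**
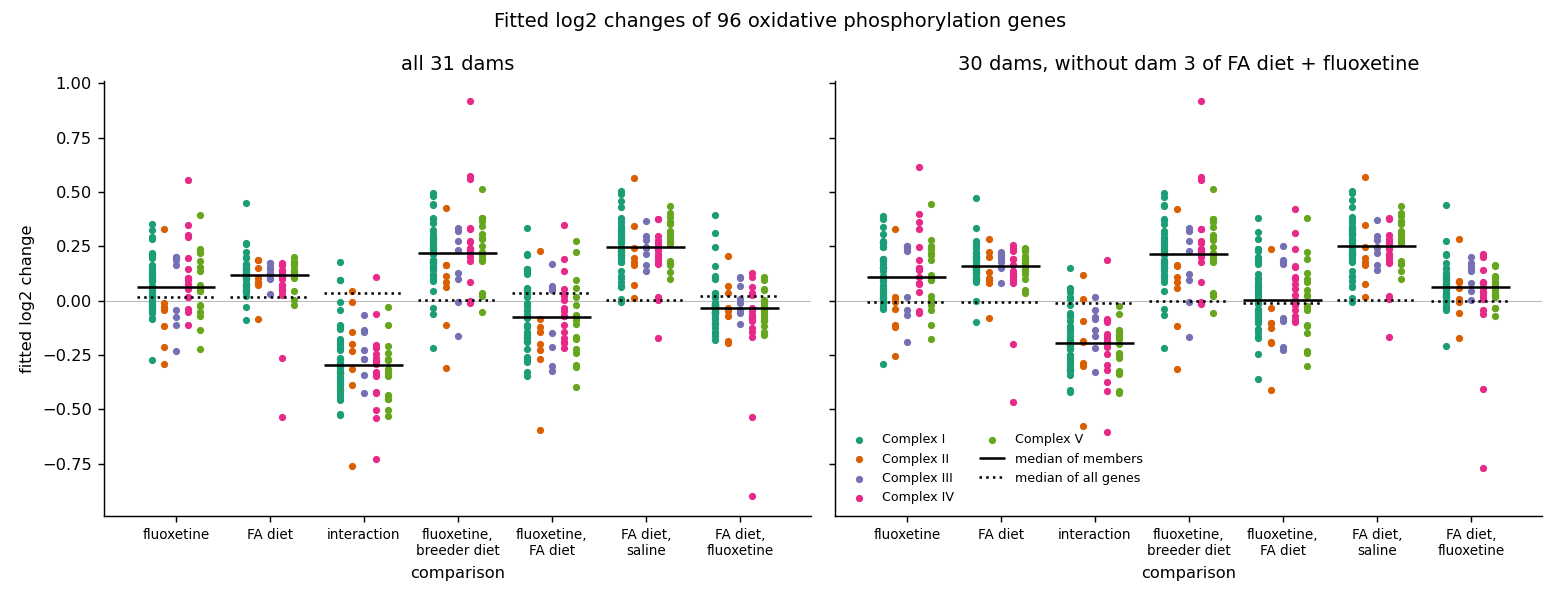
Fitted log2 difference of each of the 96 members in the 3 contrasts and the 4 comparisons within a level of the other factor, coloured by complex, with all 31 dams (left) and without dam 3 of FA diet + fluoxetine (right), solid lines at the members' median and dotted lines at the median of all genes tested. With all dams, most members lie above 0 for fluoxetine on the breeder diet (86) and FA under saline (94), and fewer do for fluoxetine on the FA diet (34) and FA under fluoxetine (30).

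The members' fluoxetine differences varied with the length of their coding sequence, a relation that was not among the planned results. Across the 96 members, Spearman's rho between the fluoxetine log2 difference and coding length was -0.61, beside 0.04 across all 12628 protein-coding genes tested. The genes share libraries and are not independent replicates, so the values are a description. Of the 48 members with 156 to 435 coding bases, 43 were higher with fluoxetine, with a median of 0.16. Of the 48 members with 438 to 2181 coding bases, 20 were higher, with a median of -0.015. Without dam 3 rho was -0.65, beside -0.01 across all genes. With a single dam left out, rho lay between -0.65 and -0.55.

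The relation had the same sign in each diet, which involve different dams: rho was -0.64 on the breeder diet (all genes -0.12) and -0.46 on the FA diet (all genes 0.16), or -0.57 on the FA diet without dam 3. The same rank correlation was 0.30 for FA (all genes -0.19) and 0.10 for the interaction (all genes 0.24). Without dam 3 these were 0.17 and 0.01, and with a single dam left out they lay between -0.0003 and 0.43 and between -0.11 and 0.27. With the length of the whole transcript in place of the coding length, rho for fluoxetine was -0.36, and with mean level it was -0.07. Among the longer members, Sdha (flavoprotein of complex II) had a fluoxetine difference of -0.12 (SE 0.11), Uqcrc2 (core protein of complex III) of -0.23 (SE 0.12) and Atp5f1c (gamma subunit of the ATP synthase) of -0.22 (SE 0.12), or -0.11, -0.19 and -0.18 without dam 3. The short members Ndufa5, Atp5me and Ndufb7, named above for their small p, had differences of 0.35, 0.40 and 0.33, beside a median of 0.16 over the 48 shorter members. These long and short examples were chosen after their values were seen. Assembly factors numbered 3 among the shorter and 9 among the longer members.

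In single dams the relation was within the spread. The ratio of summed CPM of the shorter over the longer members ran from 0.788 to 1.09 (median 0.949) in breeder diet + saline, from 0.854 to 1.25 (median 1.04) in breeder diet + fluoxetine, from 0.838 to 1.02 (median 0.942) in FA diet + saline and from 0.746 to 1.22 (median 0.978) in FA diet + fluoxetine. The groups overlapped on both diets, and dam 3 held the lowest ratio.

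**Figure D5:**
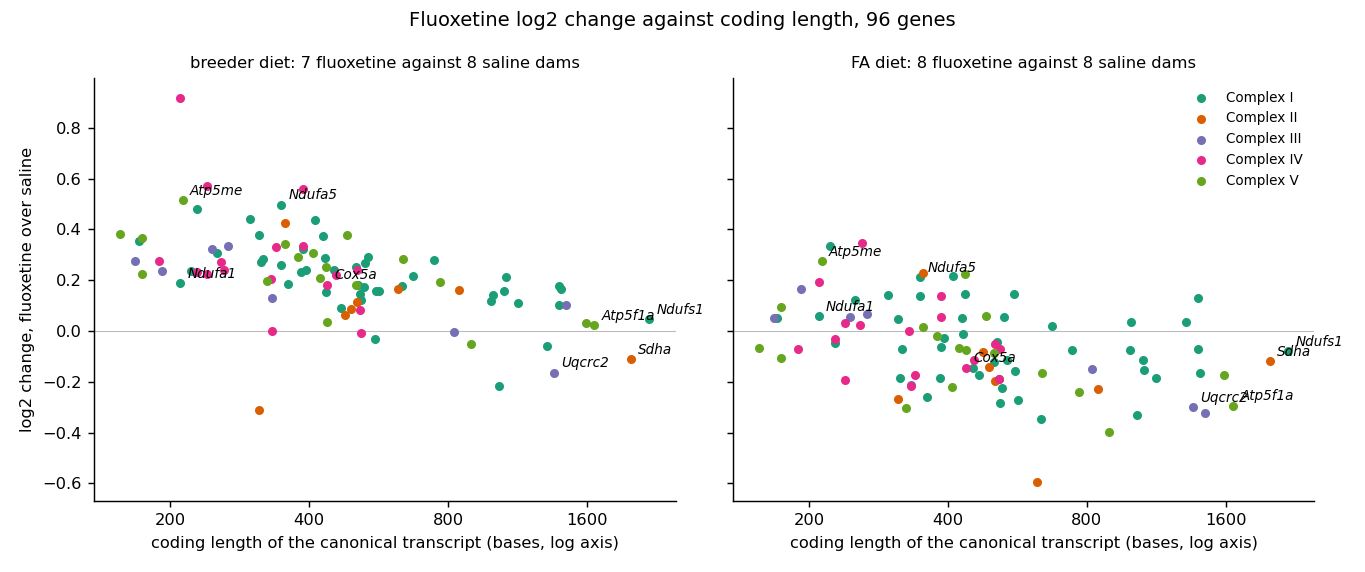
Fluoxetine log2 difference of each of the 96 members on the breeder diet (left) and on the FA diet with all 8 fluoxetine dams (right) against coding length in bases on a log axis, with 1 point per member coloured by complex. Shorter members tend to lie higher in both panels, with rho of -0.64 and -0.46.

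The spread among dams of the same group was taken as the SD of log2 CPM around the group means. This SD had a median of 0.36 over the 96 members and 0.48 over all genes tested, or 0.25 and 0.43 without dam 3. Without dam 3, Ndufv1, the flavoprotein of complex I that accepts electrons from NADH, varied least (SD 0.13), followed by Atp5pf (0.14). The restricted isoforms Cox8b (1.56), Cox4i2 (0.96), Ndufa4l2 (0.88) and Cox7a1 (0.83) varied most. They held 2178, 404, 696 and 2212 counts over the 31 libraries, and the part of sampling noise in their SD was not tested.

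Cox5a (ENSMUSG00000000088, chr9:57428456-57440678, plus strand), a matrix-facing subunit of complex IV, ran from 59.8 to 89.3 CPM in breeder diet + saline, from 64.4 to 104 CPM in breeder diet + fluoxetine, from 64.2 to 101 CPM in FA diet + saline and from 21.1 to 116 CPM in FA diet + fluoxetine, where the lowest dam but dam 3 was at 59.7 CPM. Ndufa1 (ENSMUSG00000016427, chrX:36451241-36454849, minus strand) ran from 60.7 to 124, from 54.4 to 171, from 60.8 to 124 and from 15.8 to 180 CPM in the same order, with 75.6 CPM as the lowest of the last group but dam 3. Both genes overlapped across all groups, and Ndufa1 varied more.

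Whether these subunits go together between dams was asked next. Over the 31 dams, with group means removed, Cox5a and Ndufa1 had a Pearson r of 0.62 (two-sided permutation p = 0.0867) and a Spearman rho of 0.29 (permutation p = 0.132). Without the 2 dams farthest from the median of Cox5a, dams 3 and 1 of FA diet + fluoxetine, r was -0.13 (permutation p = 0.537), and without dam 3 alone it was -0.11, so the pooled r rests on dam 3. Within groups of the breeder diet r was 0.65 with saline and -0.45 with fluoxetine, and within those of the FA diet it was 0.13 and 0.80, the latter becoming -0.41 without dam 3. This was the only relation of this kind computed, so its p is unadjusted.

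The genes most like Cox5a over the 31 dams were Dad1 (r = 0.97), Rer1 (0.93), Gpx1 (0.92), Ndufb8 (0.92) and Rps27l (0.91), and the median r of the other members was 0.65. Over the 30 dams without dam 3 they were Dad1 (0.88), Oaz1 (0.85), Eef1g (0.85), Akr1a1 (0.83) and Trappc4 (0.83), and the median of the other members was 0.25. Ndufa1 was examined in the same way after its values were seen. Its nearest genes were Wfdc3 (0.96), the milk protein gene Wap (0.95), Stard10 (0.93), Ndufv3 (0.92) and Uqcrq (0.92), with Wfdc3 (0.92) and Wap (0.91) still leading without dam 3.

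Without dam 3, the correlation with Ndufa1 ran from -0.64 for Sdha to 0.85 for Atp5mj over the other 95 members, 25 of which were below 0 and 43 at 0.5 or above. The median over subunits was 0.55 in complex I, 0.61 in complex III and -0.29 in complex II. Members at the negative end, with Sdha, were Atp5f1a (-0.63), Uqcrc2 (-0.62), the assembly factor Ndufaf1 (-0.59) and Ndufs1 (-0.57), the largest core subunit of complex I. Across the 95 members, the rank correlation of these r values with coding length was -0.58. All points share the same libraries.

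Other genes of the pathway were followed in lists, and in none did a gene pass an FDR of 10% in any of the 3 contrasts by edgeR's quasi-likelihood test. Counts below are those at an unadjusted p of 0.05 or below. Of 3 genes beside the rule (Cyc1, Cycs and Dmac2l), all were higher on the FA diet, and cytochrome c (Cycs, 0.25, SE 0.11) was the one at that limit, joined by Cyc1 (0.17, SE 0.07) without dam 3. Of 29 assembly factors of complexes III and IV, 16 were higher with fluoxetine and 23 on the FA diet, with Uqcc3 for fluoxetine (0.33, SE 0.14) and Coa6 for FA (0.46, SE 0.14) at the limit. Without dam 3, 19 were higher with fluoxetine, 3 of them at the limit, and 26 on the FA diet, 7 of them at the limit, beside 9.21% and 6.99% of genes. Of 14 further assembly factors of complexes I and V, 6 were higher with fluoxetine and 10 on the FA diet, or 7 and 11 without dam 3. Those at the limit were Foxred1 (0.28) and Tmem70 (-0.23) for fluoxetine, Timmdc1 (0.25) and Fmc1 (0.25) for FA, and Tmem70 (-0.42) for the interaction. Without dam 3, Tmem242 (0.23) joined those for FA and no gene of this list was at the limit for the interaction.

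Genes that transcribe mitochondrial DNA and handle its mRNAs were higher with fluoxetine in 21 of 27 and on the FA diet in 14 of 27. The counts were the same without dam 3, and unlike in the lists above, more were higher with fluoxetine than on the FA diet. Of the 96 members, 63 and 90 were higher, beside 53.5% and 53.9% of all genes tested. Without dam 3, 75 and 91 members were higher, beside 48.4% and 48.8% of genes. Mterf3, a negative regulator of mitochondrial transcription, stood at 0.32 (SE 0.12) for fluoxetine, and Pnpt1, an RNA-degrading enzyme, at -0.46 (SE 0.23) for the interaction, where it missed the limit without dam 3. Of 10 regulators of mitochondrial biogenesis, 5 were higher with fluoxetine and 5 on the FA diet, or 5 and 4 without dam 3, when Nrf1 (-0.33, SE 0.12) was at the limit for FA. Esrra, the estrogen-related receptor that drives many of the members' promoters in other tissues, had a fluoxetine difference of 0.27 (SE 0.09, adjusted p = 0.382 by edgeR's quasi-likelihood test). Of 13 citric acid cycle genes, 4 were higher with fluoxetine and 11 on the FA diet, or 5 and 13 without dam 3. For the interaction 1 of the 13 was above 0 (median -0.22), or 2 without dam 3 (median -0.19). Genes at the limit included Suclg1 (-0.26, SE 0.11) for fluoxetine, Idh3a (0.31) and Suclg1 (0.27) for FA, and Mdh2 (-0.40) for the interaction. Idh3a missed the limit without dam 3, and Mdh2 (0.19) was then at the limit for FA. Of 5 carriers and uncoupling proteins, 1 was higher with fluoxetine and 2 on the FA diet, with the ADP/ATP carrier Slc25a5 at -0.28 (SE 0.13) for fluoxetine. Without dam 3 the counts were the same, and Slc25a5 was at the limit for FA as well (0.24, SE 0.11).

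Markers of cell types are given beside these values, since the tissue is a mixture. All 8 milk protein genes were lower with fluoxetine (median -0.20, Csn3 at -0.44, SE 0.20) and higher on the FA diet (median 0.07), and without dam 3 the medians were -0.13, with 1 of 8 higher, and 0.16. For the interaction 0 of these 8 genes were above 0 (median -0.29), or 1 without dam 3 (median -0.13). Under saline all 8 were higher on the FA diet (median 0.20). Their sum ran from 318400 to 970590 CPM in all dams but dam 3, where it was 58609 CPM. Also under saline, 6 of 6 fibroblast markers (median 0.37), 6 of 6 macrophage markers (0.24) and 8 of 8 muscle markers (0.73) were higher on the FA diet. In the same comparison 3 of 4 endothelial, 3 of 4 brown fat, 3 of 5 myoepithelial, 3 of 7 white adipocyte and 1 of 4 lymphocyte markers were higher. Fibroblast markers had a median of 0.55 for FA, with Dcn at 0.75 and Lum at 0.78, and of 0.02 without dam 3. For fluoxetine 4 of 6 were higher (median 0.07) and 0 were at the limit, while without dam 3 all 6 were lower (median -0.49) and 5 were at the limit, beside 9.21% of genes. Of 5 myoepithelial markers, 1 was higher with fluoxetine, with Acta2 at -0.38 and Myh11 at -0.32, and 4 were higher on the FA diet, with Acta2 and Oxtr at 0.35 each. Without dam 3 these counts were 0 and 3 of 5. White adipocyte markers were higher with fluoxetine in 4 of 7 (median 0.08, Fabp4 at 0.42), and without dam 3 in 2 of 7 (median -0.15, Fabp4 at 0.23). Endothelial markers were higher with fluoxetine in 3 of 4, with Emcn at 0.42, or 0.33 without dam 3. With fluoxetine and on the FA diet, 6 and 5 of 6 macrophage markers, 1 and 0 of 4 lymphocyte markers, 5 and 1 of 8 muscle markers and 2 and 1 of 4 brown fat markers were higher, and without dam 3 the macrophage counts were 1 and 4. The brown fat markers include the members Cox8b and Cox7a1, so their counts are in part values of members. They also include Cidea, which was at 133 CPM in dam 3 and at 1178 CPM or above in the other dams. In dam 3 milk transcripts made up 17.7% of counts, and Ucp1 had a median of 0 CPM over all dams. The level of Cidea is therefore not read here as a measure of brown fat. With all dams, no marker of macrophages, lymphocytes, skeletal muscle or brown fat was at the limit in the 3 contrasts. Without dam 3, Cd68 (-0.42, SE 0.20) was at the limit for FA, and Lyz2 (-1.02, SE 0.26) and Cd68 (-0.91, SE 0.41) for the interaction. For the interaction 4 of 6 macrophage and 6 of 6 fibroblast markers were above 0 (medians 0.07 and 0.41). Without dam 3, 0 of 6 were above 0 in either list (medians -0.63 and -0.69). Those at the limit then numbered 2 and 3, beside 3.48% of genes. The part of these cell types in the members' values was not tested.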

How the data were processed

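Per the labels and the study's methods, the authors made 1 poly-A library per dam, checked reads with FastQC 0.11.7, trimmed them with Trim Galore 0.4.4, aligned them by HISAT2 (genome build GRCm39) and assigned reads to genes by HTSeq, in the intersection-nonempty mode. The deposited values are raw whole-number counts with no normalization. The annotation release and strand option are not given in the sources used here, so overlapping genes may share reads. Groups follow the labels. The study's methods give the sizes of the fluoxetine groups the other way round.

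Names, positions and lengths came from GENCODE vM39. Of the 55379 gene IDs, 667 had no entry there. Genes were filtered with filterByExpr in edgeR 4.0.16 (R 4.3.3), which removed 41017 and kept 14362, all 96 members among them. Counts were scaled by TMM and fitted to the 4 groups with the robust quasi-likelihood test (common dispersion 0.169), with Benjamini-Hochberg adjustment over all genes tested and an FDR limit of 10%. DESeq2 1.42.0 was an alternative. For correlations, CPM took a prior count of 2 on the log2 scale, and permutations within groups numbered 100000. Scripts were tested on simulated data. The members and lists were chosen with earlier results of these data known.

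Named were the 3 most abundant members per complex, the 3 of smallest p per contrast, tissue isoforms and partners, the marker subunits, Atp5if1, members under the count minimum, list genes at an unadjusted p of 0.05 or below (1 is not reported here), and the 5 genes most like Cox5a. Others were chosen after their values were seen. Animal numbers were checked for pairing, which the check did not settle, and the main fit took them as names only.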

Additional observations from a re-analysis of the deposited data

Results flagged for a closer look

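Each value below lay farther from the nearest dam of its group than Dixon's test allows. The test was run on 132 groups of dams over 33 quantities and marked 17, and chance marks about 1 group in 20. Of the 17, 10 belonged to dam 3 of FA diet + fluoxetine. In this dam the members summed to 2316 CPM (the other 7 dams 4926 to 7067), complex I to 694 CPM, complex IV to 503 CPM and complex V to 775 CPM. Its levels were 66.9 CPM for Cox6a1, 95.6 for Cox4i1, 53.0 for Cox8a, 16.7 for Cox7a2, 35.5 for Atp5pf and 10.3 for Ndufs8.

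The muscle and brown fat isoform Cox8b stood at 9.57 CPM in dam 10 of FA diet + fluoxetine (others at most 2.98). Cox7a1 stood at 11.9 CPM in dam 5 of breeder diet + fluoxetine, at 9.18 CPM in dam 4 of FA diet + saline and at 6.47 CPM in dam 10 of FA diet + fluoxetine, the dams with the highest muscle marker sums. In dam 4 of breeder diet + saline, Atp5f1e was at 121 CPM (others at most 84.3) and the inhibitor Atp5if1 at 32.3 CPM (others at most 21.4). Atp5me was at 56.7 CPM in dam 9 of breeder diet + fluoxetine (others at most 34.1).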

How the results depend on the processing

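No member passed an FDR of 10% under any of the 44 alternatives tried for fluoxetine, 44 for FA and 41 for the interaction, leaving out each dam included. Named differences kept their sign in 386 of 387 alternatives. The exception was Ndufa10 for the interaction (0.013) with library totals and no scaling factors, an alternative chosen after seeing the data. Under that scaling the members at an unadjusted p of 0.05 or below numbered 41 for fluoxetine, 0 for FA and 0 for the interaction, beside 3059, 506 and 1652 of all genes tested, and the median of all genes moved to 0.26, 0.03 and 0.47 while that of the members was 0.24, 0.05 and -0.03. The FA count was 1 with the likelihood ratio test, 0 with no filter on low counts, 1 with the 20 most abundant genes left out, 21 under saline alone and 0 under fluoxetine alone, where the members' median was -0.035. The median for fluoxetine on the FA diet alone was -0.073.

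Leaving out 1 dam at a time gave 1 to 25 members for fluoxetine (1 without dam 9 of breeder diet + fluoxetine, 25 without dam 3 of FA diet + fluoxetine), 0 to 32 for FA and 3 to 13 for the interaction (13 without dam 6 of FA diet + fluoxetine), with medians of 0.03 to 0.11, 0.09 to 0.16 and -0.36 to -0.19. The correlation of Cox5a and Ndufa1 was -0.13 without the 2 farthest dams and -0.11 without dam 3. The rank correlation with coding length lay between -0.64 and -0.41 under the other settings.

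With a replicate block on the animal number there were 0 members for fluoxetine (median 0.01), 6 for FA (0.14) and 4 for the interaction (-0.22). The rank correlation with coding length for fluoxetine was -0.41 with this block. The main fit did not take the numbers to pair the dams, and whether they do was not settled. The deviations of 28 same-numbered pairs had a median correlation of 0.08, with 12 above 0.1. For 332 other pairs the median was -0.01, with 74 above 0.1, a smaller share than among same-numbered pairs.

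Results planned on the mitochondrial-coded mRNAs, 2 of 3 correlations and the likeness to mt-Co1 were not run, since the tables used here hold none of these genes. The cause of these shifts was not tested. Standard errors such as 0.09 for Atp5f1b (FA) and 0.24 for Atp5mc1 (interaction) limit what could be called at 7 or 8 dams a group.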

Other observations

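Counted as a share of the raw library rather than in scaled CPM, the members took 0.411% to 0.896% of counts, and at least 0.851% of the counts left after the 8 milk transcripts were set aside. In the order of groups above, the median share of raw counts was 0.494%, 0.531%, 0.471% and 0.555%. The median was thus lower in FA diet + saline than in breeder diet + saline, while the means were 0.505% and 0.487%. With the milk transcripts set aside the medians were 1.56%, 1.69%, 1.66% and 1.67%. The median TMM factors were 0.996, 0.978, 0.840 and 0.925. The part of the scaling in the members' differences was not tested. Dam 3 of FA diet + fluoxetine, whose scaled sum was the lowest, had 0.701% of raw counts in the members, above the median of 0.512% over all dams, and the lowest share (0.851%) once the milk transcripts were set aside. Among the longer members, 13 of 48 (27.1%) held the ETS core in the 250 bases before their start, and among the shorter members 6 of 48 (12.5%), beside 12.4% of all protein-coding genes. This difference was not tested.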
